A study of Mus musculus with 142 samples.

Results

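Morc1 is a long gene in the Dppa2/4 replication domain of mouse embryonic stem cells (mESCs), and 2 of the elements that keep this domain early, B and C, lie at its ends. The gene spans chr16:48431237-48630900 on the plus strand of mm10 (199664 bp; ENSMUSG00000022652.7), with B over its promoter and C between 150097 and 189114 bp from its start. Its members here were the 50 kb windows of the replication timing (RT) table that overlap this interval: 5 of 49264 windows, from chr16:48400001-48450000 (the first window, at the B end) to chr16:48600001-48650000 (the fifth window, at the C end). Of these bases, 18764 of the first window and 30900 of the fifth belong to Morc1, and the other 3 windows lie wholly inside it.

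RT was measured by E/L Repli-seq in F121-9 cells, a hybrid mESC line of a musculus and a castaneus parent grown in 2i + LIF. Cells were labelled with BrdU for 2 h and sorted into early and late S phase, and the log2 ratio of early to late reads was taken for each homolog apart, so that a higher value means earlier replication. The table held 66 libraries of 53 CRISPR clones, in most of which 1 homolog was modified and the other was not. All deletions were made in this 1 line, 51 of the 61 deletion alleles were on musculus, and 42 clones had an unmodified castaneus allele with values here against 2 with an unmodified musculus allele, so that strain and deletion could mostly not be told apart. The 28 deletions are named by what they remove: A, B and C are the 3 early replication control elements (ERCEs), Z is an upstream site, OSN marks sites bound by OCT4, SOX2 and NANOG, TSS marks a transcription start site, and CL or CR marks the left or right side of C. A full stop joins deletions carried by the same allele. In CR11.8k, CR13.4k and CR14.6k it is instead the decimal point of a length in kb. The bases that ∆COSN1.2.8k removes are not given here, since it is not among the study's listed elements.

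Replication timing is the order in which parts of a genome are copied during S phase. Early replication usually goes with open chromatin and transcription, and ERCEs are stretches of DNA whose loss makes a whole domain replicate later. Morc1 encodes a MORC-family ATPase known for silencing transposons in the male germ line, and its neighbours Dppa2 and Dppa4 encode factors of early embryonic cells.

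The deletions inside Morc1 were bounded by the guides below, shown because their cuts define which bases were lost at each end of the gene; each 23-base site is written 5′ to 3′ with its PAM, the triplet Cas9 requires, in capitals. The sites of the B pair lie at chr16:48396802-48396824 and chr16:48443051-48443073, and the deletion removed 46249 bp, which took the promoter and the first 3 exons of the full-length transcript.
B-G1: cacgtacacagctgcggtagTGG
B-G2: tcagagacggaatcgcatcaTGG
Within B, the B-TSS pair (chr16:48431251-48431273 and chr16:48431391-48431413) removed 140 bp from base 20 of the gene onward, including part of its first exon, and the B-OSN-2 pair (chr16:48435552-48435574 and chr16:48436048-48436070) removed 496 bp of an intron.
B-TSS-G1: cacgcctacgtccacgcgtaCGG
B-TSS-G2: tggaaactcacgaattcgcgTGG
B-OSN-2-G1: ggtgcataaggatcttgaacTGG
B-OSN-2-G2: gttgagaaggcacttgtgagTGG
At the other end, the C-OSN-3 pair (chr16:48606304-48606326 and chr16:48607147-48607169) removed 843 bp, the C-OSN-2 pair (chr16:48608199-48608221 and chr16:48608749-48608771) 539 bp and the C-OSN-1 pair (chr16:48613166-48613188 and chr16:48614737-48614759) 1571 bp, none of which overlapped an exon of the full-length transcript.
C-OSN-3-G1: cagcctgttgaattgacagaAGG
C-OSN-3-G2: tctcttccctgtgccgtaagTGG
C-OSN-2-G1: agagtttgtagaatgctccgGGG
C-OSN-2-G2: acaagcatggtagggcctaaAGG
C-OSN-1-G1: gagtaactcaggcaaaacgtTGG
C-OSN-1-G2: ggaccggccaacctcccttaAGG
All of these sites matched chromosome 16 of GRCm38 once. B-OSN-1 (377 bp) lies upstream of the gene, from −8897 bp to −8521 bp of its start.

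On unmodified alleles Morc1 replicated early along its whole length and became later from the B end to the C end. Over the 42 castaneus clones the log2(E/L) of the first window was 0.878 at the lowest, 1.12 at the median and 1.43 at the highest, and that of the fifth window 0.543, 0.827 and 1.14. The tilt, defined as the fifth window minus the first, was −0.28 ± 0.11 (SD, n = 42 clones) and below 0 in all 42 (two-sided permutation of signs, p = 1e-05, the smallest that 100000 resamples can give). Each step inside the gene was a fall, with means of −0.07, −0.08, −0.07 and −0.06 in order from the first window to the fifth, with adjusted permutation p of 0.00068, 0.00012, 0.00012 and 0.000915. The steps into the flanks did not pass: the first window stood 0.03 above the window to its left (adjusted permutation p = 0.13) and the step from the fifth window to the one on its right was −0.02 (adjusted permutation p = 0.243; 6 steps were tested). The steps that passed were thus the 4 inside the gene. The authors smoothed the values by loess over 300 kb, more than the length of the gene, so neighbouring windows share reads and the steps are not independent of each other.

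**Figure D1:**
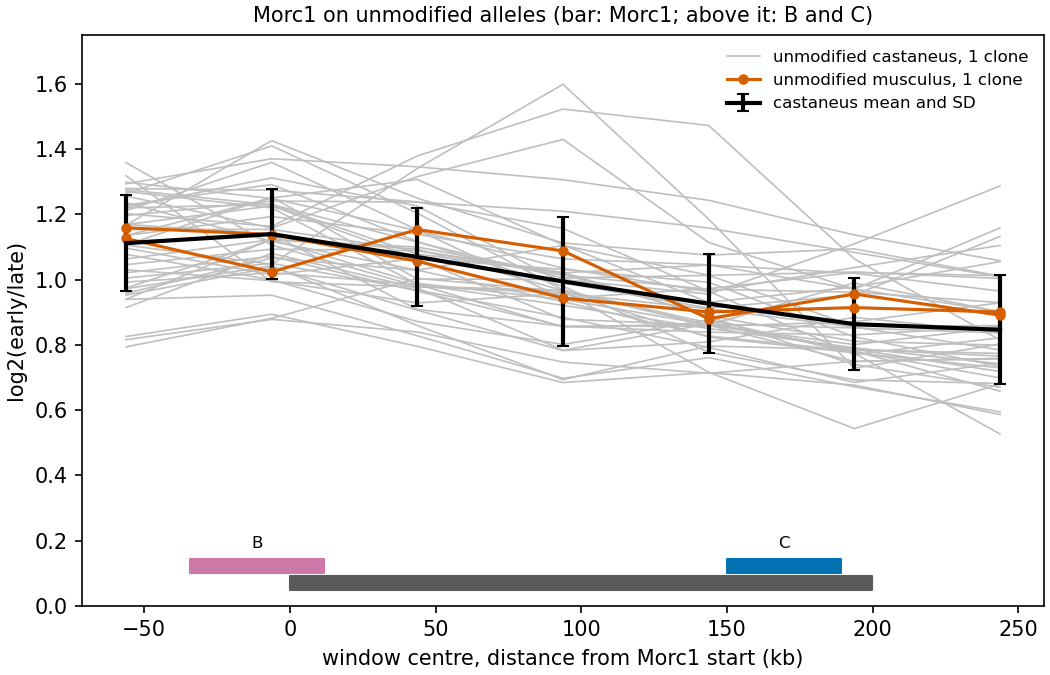
log2(early/late) in the 5 windows of Morc1 and the window on either side, plotted at the distance of the window centre from the gene's start. Grey lines are the 42 unmodified castaneus clones, the black line their mean with SD, orange lines the 2 unmodified musculus clones; the castaneus mean falls from 1.14 in the first window to 0.863 in the fifth.

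The gradient was steeper than that of the median stretch of the genome. Among 46039 stretches of 5 windows, 42.1% had a larger absolute tilt on unmodified castaneus alleles than Morc1, and the median absolute tilt was 0.211. The mean over the 5 windows, 1.00 ± 0.13 (SD, n = 42), was exceeded by 24.3% of stretches. The 2 unmodified musculus alleles, from ∆CR11.8k clone 50 and ∆CTSS clone C4, had tilts of −0.07 and −0.22 and means of 1.02 and 0.99. Their tilt was 0.13 less negative than on castaneus (exact two-sided permutation p = 0.0613; the smallest p possible is 0.00211), so a difference between the strains was not shown. On the inner windows alone, the fourth minus the second, the difference between strains turned to −0.07.

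The unmodified castaneus homologs of the clones overlapped between classes of deletion. In the 5 clones whose musculus allele lacked all of B with C sites the mean over the gene on castaneus ranged from 0.915 to 1.09, and in the 13 clones with C deletions alone from 0.782 to 1.32. The medians of the tilt over the classes of deletion lay between −0.28 and −0.22. This is a description of the control alleles, and differences among them were not tested.

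Deletions delayed the gene, and calls of a changed level outnumbered calls of a changed slope. All 28 deletions had a mean change over the 5 windows below 0, from −1.88 to −0.02 with a median of −0.51, and 58 of 60 alleles were later than their control. The delay passed the limma test for 19 deletions, none was earlier, and 9 did not pass. This count is read against the share of all stretches called later in the same comparisons (background 10.7%). Deleted and control alleles mostly differ in strain as well, and its part in these calls was not tested. Window by window, 84 of the 140 pairs of a deletion and a window passed, all later (background 7.27%): 13 deletions in the first window, 17 in the second, 17 in the third, 18 in the fourth and 19 in the fifth. By contrast, 1 deletion of 28 changed the tilt at an adjusted p under 0.05, which is not above the share of all stretches called at that threshold (background 4.53%). At an unadjusted p under 0.05 the count was 5, for which no share of stretches is given. The count of 1 was 0 on the inner windows, 3 between the windows outside the gene and 4 with unmodified alleles of the same strain as control. For deletions on musculus, that same-strain control is the mean of 2 alleles. Their tilt averaged −0.15, against −0.28 on castaneus, and all these deletions share it. From deletion to deletion the share of stretches called ran from 0.00227% to 34.2% for a later mean and from 0% to 20.9% for the tilt.

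Ordered from the latest, the changes of the mean were −1.88 for ∆A.B.COSN123, −1.66 for ∆A.BOSN12.BTSS.COSN123, −1.41 for ∆A.BOSN12.COSN123, −1.22 for ∆AOSN.BOSN12.COSN123, −1.055 for ∆AOSN.B.COSN123, −1.03 for ∆BOSN12.COSN123 and −0.95 for ∆Z.B.C. These 7 are the deletions that lost the whole of B or both of its OSN sites together with C OSN sites. A middle group ran from −0.73 for ∆A.COSN123 through ∆BOSN1.COSN123, ∆ATSS.BTSS.CTSS, ∆A.BOSN1.COSN123, ∆COSN123, ∆BTSS.CTSS, ∆Z.AOSN.COSN123, ∆AOSN.COSN12, ∆A.COSN12, ∆AOSN.COSN123, ∆CR13.4k and ∆BTSS to −0.35 for ∆ATSS. The rest, from −0.27 for ∆COSN12 to −0.02 for ∆COSN1, were ∆CR14.6k, ∆CR11.8k, ∆B, ∆CL20k, ∆CTSS and ∆COSN1.2.8k between them. Of the 27 gaps between neighbours in this order, 0 exceeded the half-width of the 95% interval of the gap, so no neighbouring pair differed beyond the spread. Sorting by the same values keeps such gaps small, so this count does not bear on deletions farther apart in the order.

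**Figure D2:**
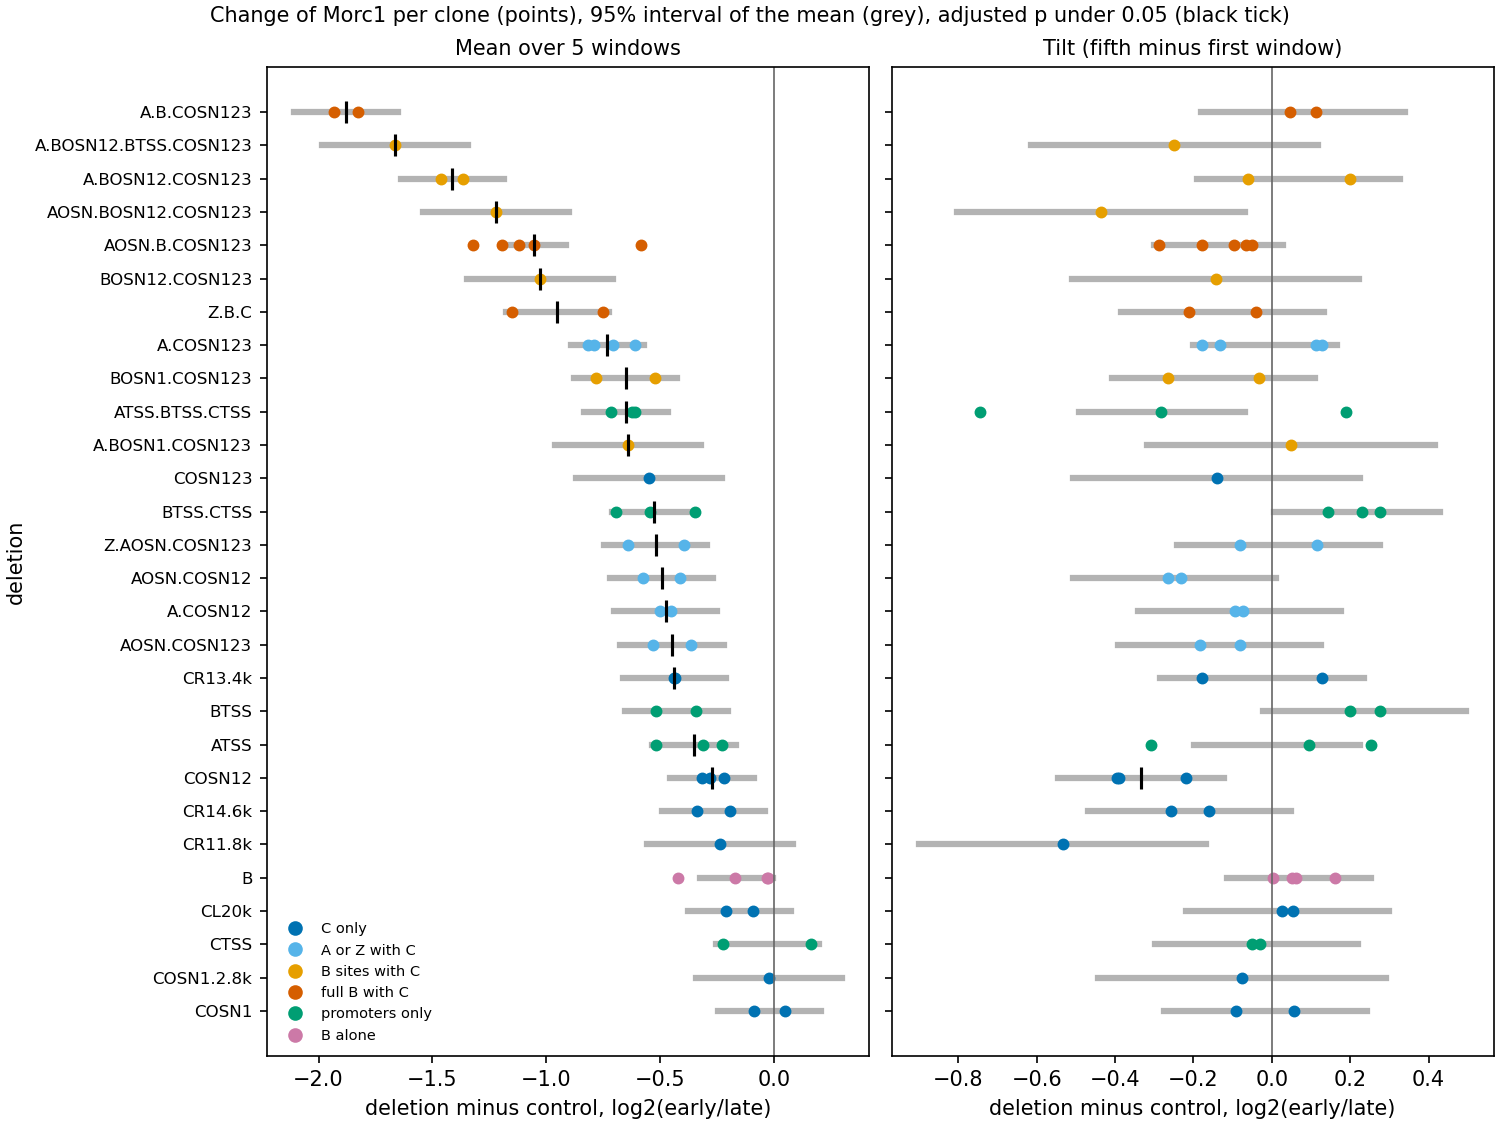
Change of Morc1 against control for each deletion, as the mean over 5 windows (left) and as the tilt (right), in log2(early/late). Points are clones coloured by class, grey bars the 95% interval of the fitted mean, and black ticks mark an adjusted p under 0.05; 19 ticks stand in the left panel and 1 in the right.

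C deletions on their own, the class that removes OCT4, SOX2 and NANOG sites or flanking DNA at the C end, included the only called change of tilt, and 2 of its 8 deletions, ∆COSN12 and ∆CR13.4k, were called later (14.7% and 11.9% of stretches called later). In ∆COSN12, which lacks C-OSN-1 and C-OSN-2, the 3 clones B6, C6 and D3 had 1.17, 1.36 and 0.93 in the first window, inside the range of unmodified castaneus. In the fifth window they had 0.46, 0.86 and 0.57, of which B6 was below that range. Against the castaneus homolog the tilt changed by −0.39, −0.39 and −0.22, a mean of −0.33 (SE 0.10; adjusted p = 0.0297; 12.4% of stretches called). The first window changed by −0.0016 (adjusted p = 0.995) and the fifth by −0.34 (adjusted p = 0.00884). The former averages clones of opposite sign, at 0.13 (B6), 0.19 (C6) and −0.32 (D3). D3 was later at both ends, and in B6 and C6 the largest difference lay in the third window, at −0.57 and −0.41. There the deleted alleles of B6 and C6 stood at 1.03 and 1.11, above the unmodified castaneus mean of 0.994. Their homologs stood at 1.60, the highest of the 42 unmodified castaneus alleles, and 1.52. The homolog of C6 also had the least negative tilt of the 42, −0.0996. The part of these homologs in the changes was not tested. The mean changed by −0.27 (adjusted p = 0.0214) and did not pass without any 1 of the 3 clones (adjusted p from 0.0591 to 0.107). It was −0.0824 with all unmodified alleles as control (adjusted p = 0.495) and −0.0889 with those of the same strain (adjusted p = 0.514). The change of tilt did not pass without clone B6 (adjusted p = 0.139) or without C6 (adjusted p = 0.154), with all unmodified alleles as control (−0.25, adjusted p = 0.0580), or on the inner windows (−0.13, adjusted p = 0.326), and it was −0.65 between the windows flanking the gene (adjusted p = 2.8e-05).

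The other C deletions gave no called tilt. ∆COSN123, which also lacks C-OSN-3, was a single clone grown in 4 cultures, whose first windows were −0.70, −0.34, −0.37 and −0.44 from the homolog and whose values in the fifth were −0.84, −0.48, −0.39 and −0.70 from it. Both ends were thus later in every culture. Its tilt changed by −0.14 (SE 0.18; adjusted p = 1.00) with a 95% interval from −0.51 to 0.23. The mean changed by −0.55 with 1 clone as the unit and did not pass. With the 4 cultures as units it passed (adjusted p = 3.5e-06). All 4 are cultures of the same clone, so that p does not measure the spread between clones of this deletion. The step from ∆COSN1 to ∆COSN12 changed the tilt by −0.32 (95% interval −0.65 to 0.02, adjusted p = 0.672) and the step from ∆COSN12 to ∆COSN123 by 0.19 (95% interval −0.23 to 0.62, adjusted p = 1.00).

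Among the larger C deletions, ∆CR13.4k, which spans all 3 OSN sites, changed the mean by −0.44 (adjusted p = 0.0042; 11.9% of stretches called later) at a tilt change of −0.03, with its 2 clones at 0.13 and −0.18. ∆CR14.6k changed the tilt by −0.21 and ∆CL20k, the left side of C, by 0.04, and their difference of −0.25 did not pass (95% interval −0.62 to 0.12). ∆CR11.8k, whose single clone carried the deletion on castaneus, had the change of tilt farthest from 0 among the 28 deletions, −0.53 (unadjusted p = 0.0054, adjusted p = 0.322; 0.0069% of stretches called). Its values ran from 1.09 in the first window to 0.49 in the fifth against 1.02 and 0.96 on its musculus homolog. The right-side deletions remove 11827 to 14654 bp of the fifth window themselves, and ∆CL20k 18.7 kb of the fourth, so that fewer bases of the window are left to be read.

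Loss of A sites or Z with the C sites delayed the gene with no called change of tilt. All 5 deletions of this class were later at an adjusted p under 0.05, with changes of the mean from −0.45 for ∆AOSN.COSN123 to −0.73 for ∆A.COSN123 (adjusted p = 1.5e-08; 14.1% of stretches called later), and 0 of 5 changed the tilt. In ∆A.COSN123 the 4 clones had 0.43, 0.53, 0.39 and 0.30 in the first window and 0.08, 0.02, −0.01 and 0.04 in the fifth, all below every unmodified castaneus allele at both ends. The changes of tilt were −0.13, 0.13, −0.18 and 0.11, on either side of 0. Removing A, which begins at −122989 bp from the gene's start, on top of ∆COSN123 changed the tilt by 0.12 (95% interval −0.29 to 0.53).

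Loss of B was seen with C sites gone and, on castaneus alleles, on its own. ∆B alone, carried by the castaneus allele of 4 clones whose musculus allele carried more deletions, had first windows of 0.62, 0.92, 1.10 and 1.11, and 0.51, 0.70, 0.89 and 0.84 in the fifth window, in the order of clones 5A.7, 2A.2, 3C.4 and 5A.6. Clone 5A.7 lay below all unmodified castaneus alleles in the first window and the other 3 inside their range. The mean changed by −0.16 (SE 0.08; adjusted p = 0.262) and the tilt by 0.07 (SE 0.09; 95% interval −0.11 to 0.25). Without clone 5A.7 the mean changed by −0.0767 (adjusted p = 0.808) and the tilt by 0.0382. B itself removes 43.1 kb of the first window.

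With C OSN sites and A also gone, loss of B took the gene to the late side, and all 3 deletions of the full B with C sites were called later (8% of stretches called later in ∆A.B.COSN123, 18.9% in ∆AOSN.B.COSN123 and 10.8% in ∆Z.B.C). All 3 lack 43.1 kb of the first window, and ∆Z.B.C also 18.7 kb of the fourth and 20.4 kb of the fifth. Few bases of the first window are thus left to be read. Through the smoothing, its value and the tilt rest in part on neighbouring windows. The 2 clones of ∆A.B.COSN123 had −0.81 and −0.68 in the first window and −0.98 and −0.84 in the fifth, so that every window was below 0 in both. On the deleted alleles, all on musculus, the mean over the gene was −0.84 in ∆A.B.COSN123 and 0.21 in ∆A.COSN123. The controls were castaneus homologs, apart from a clone of ∆A.B.COSN123 set against the mean of all unmodified alleles. From ∆A.COSN123 to ∆A.B.COSN123, the change of the mean against these controls fell by 1.15 (SE 0.14, adjusted p = 2.4e-06). Of 39146 stretches tested, 15 were called (0.0383%), all of them between 46 and 51 Mb of chromosome 16 and 9 overlapping Morc1 windows. The tilt changed by 0.10 (SE 0.16; 95% interval −0.22 to 0.41; adjusted p = 1.00; 0% of stretches called).

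The same loss on ∆AOSN.COSN123 gave a change of the mean closer to 0, and the difference between these changes did not pass as an interaction (−0.54, adjusted p = 1.00). ∆AOSN.B.COSN123 had 5 clones with means over the gene of −0.32 (2A.2), −0.20 (3C.4), −0.09 (5A.2), −0.07 (1A.4) and 0.41 (5A.6), the last standing above the others at both ends. Against ∆AOSN.COSN123 the mean fell by 0.61 (SE 0.13; adjusted p = 0.0459; 0.105% of stretches called) and the tilt changed by −0.0034 (SE 0.15; 95% interval −0.31 to 0.30). The call of the delay did not hold without any 1 of clones 1A.4, 2A.2, 3C.4, 5A.2, A6 or B6 (adjusted p from 0.0739 to 0.567), and without 5A.6 the fall was 0.72 (adjusted p = 0.00237). From ∆AOSN.B.COSN123 to ∆A.B.COSN123 the mean changed by −0.82 (SE 0.13; adjusted p = 0.0026; 0.0263% called). That call did not hold without clone 2E.1 (−0.77, adjusted p = 0.648). Their tilts differed by 0.22 (95% interval −0.09 to 0.52).

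The OSN sites of B, 1 before the gene and 1 in an intron, were lost alone or together, and all 6 deletions that lost them with C sites were called later (0.558% to 24.1% of stretches called later). Of these, ∆A.BOSN1.COSN123, ∆A.BOSN12.BTSS.COSN123, ∆AOSN.BOSN12.COSN123 and ∆BOSN12.COSN123 were 1 clone each, whose test assumes that they vary like the clones of other deletions. Adding loss of B-OSN-1 alone changed the mean by −0.10 on ∆COSN123 and by 0.09 on ∆A.COSN123, neither past the test, with 95% intervals of −0.50 to 0.29 and −0.27 to 0.45. Adding both sites changed it by −0.48 on ∆COSN123 (adjusted p = 1.00), −0.68 on ∆A.COSN123 (SE 0.14; adjusted p = 0.0532) and −0.77 on ∆AOSN.COSN123 (SE 0.19; adjusted p = 0.0371; 1.03% called). The first of these steps sets 1 clone against 1 and the last 1 clone against 2, with the spread of the lone clones taken from other deletions. Values below 0 in every window were seen in ∆A.BOSN12.COSN123, with −0.35 and −0.41 in the first window and −0.75 and −0.63 in the fifth, and in ∆AOSN.BOSN12.COSN123, which ran from −0.22 to −0.88. The latter changed the tilt by −0.44 (SE 0.18; unadjusted p = 0.0209, adjusted p = 0.105; 7.32% of stretches called more negative), from 1 clone. Whether the loss of both B sites acts differently with and without A was tested as an interaction, which was −0.20 for the mean and 0.09 for the tilt and passed for neither (adjusted p = 1.00 for each).

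**Figure D3:**
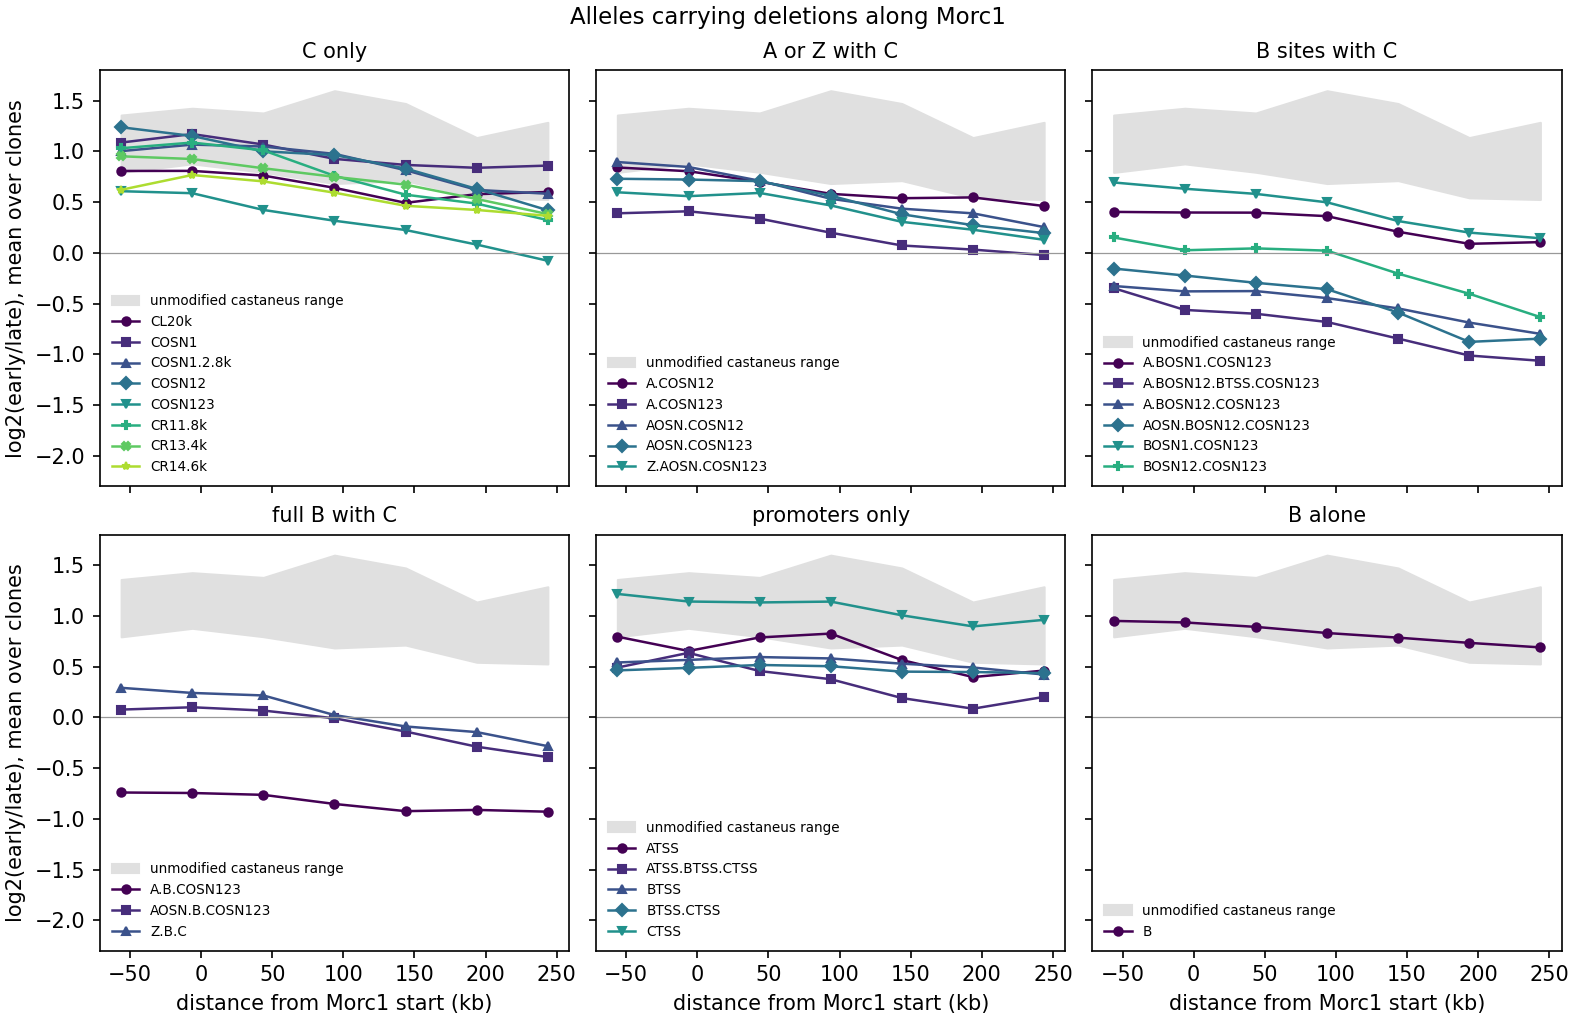
Mean log2(early/late) over the clones of each deletion in the 5 windows of Morc1 and the window on either side, by class of deletion, against distance from the gene's start. The grey band is the range of the 42 unmodified castaneus clones; ∆A.B.COSN123 lies lowest of the full B class, from −0.75 in the first window to −0.91 in the fifth, and ∆BTSS and ∆BTSS.CTSS run nearly level.

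Promoter deletions, which remove the start of the long Morc1 transcript (BTSS), a start inside C (CTSS) or that of Dppa2 (ATSS), included the alleles nearest to a level profile, and 3 of the 5, ∆BTSS.CTSS, ∆ATSS.BTSS.CTSS and ∆ATSS, were called later (14.5%, 34.2% and 28.2% of stretches called later). Per the study, the A-TSS site also overlaps an OSN site, so ∆ATSS and ∆ATSS.BTSS.CTSS do not remove start sites alone. The ∆BTSS group held 2 alleles, A10 on musculus and the castaneus allele of ∆BTSS.CTSS clone C11, which rests on the header of its deposited column naming it BTSS, since the sample's labels give only the other homolog's deletion. In these, the first windows were 0.68 and 0.46 and those of the fifth 0.52 and 0.46. In the 3 clones of ∆BTSS.CTSS, C11, G3 and H11, they were 0.32, 0.81 and 0.34 in the first window and 0.28, 0.68 and 0.39 in the fifth, all below the unmodified castaneus mean. The only 2 of 61 deletion alleles without a fall from the first window to the fifth were among these, C11 on castaneus at 0.005 and H11 at 0.05.

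∆BTSS.CTSS changed the mean by −0.53 (SE 0.09; adjusted p = 3.4e-05; 14.5% of stretches called later), the first window by −0.65 and the fifth by −0.43. Its tilt became less negative by 0.22 (SE 0.10; 95% interval 0.0047 to 0.43; unadjusted p = 0.0453, adjusted p = 0.295; 3.45% of stretches called), in 3 of 3 clones, and that of ∆BTSS by 0.24 (SE 0.13; 95% interval −0.02 to 0.50; adjusted p = 0.998) on both alleles. Neither change of tilt passed the test. ∆BTSS changed the mean by −0.43 (SE 0.11; adjusted p = 0.0825; 0.0697% called later) with its alleles at −0.34 and −0.52, and passed with all unmodified alleles as control (a change of −0.45, adjusted p = 0.0052). Adding the loss of C-TSS to that of B-TSS changed the mean by −0.10 (95% interval −0.39 to 0.19) and the tilt by −0.02 (95% interval −0.36 to 0.31).

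∆CTSS alone left the gene within the unmodified range, with means of 0.97 (C12) and 1.15 (C4) and changes of −0.03 for the mean and −0.04 for the tilt. Loss of all 3 starts changed the mean by −0.65 (adjusted p = 3.7e-07; 34.2% of stretches called later), but its 3 clones went different ways in tilt, at −0.55 (A1), −1.02 (A8) and −0.08 (C4). Their change of tilt, −0.28, had an adjusted p of 0.0512 with 20.9% of all stretches called, and was −0.05 without clone A8 and −0.51 without clone C4 (adjusted p = 0.000876). ∆ATSS.BTSS.CTSS differed from ∆BTSS.CTSS in tilt by −0.50 (SE 0.15; 95% interval −0.80 to −0.20; adjusted p = 0.0541; 3.02% of stretches called). The castaneus alleles of the same 3 clones, which lack A-TSS, changed by −0.35 (adjusted p = 0.0026; 28.2% called later) at tilts of −0.02, −0.58 and −0.18. Such shares of calls over all stretches lie beside both results, and their part in the results for the triple deletion was not tested. Removing B-TSS on top of A, both B OSN sites and the C OSN sites changed the mean by −0.25 and the tilt by −0.32, from 1 clone against 2, and neither passed (95% intervals −0.64 to 0.14 and −0.77 to 0.13).

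Set against each other as classes, the deletions were not separated by tilt. With 1 value per clone and allele, the change of tilt had a median of −0.15 in C deletions alone (14 clones), −0.09 with A or Z and C (12) and −0.10 with B sites and C (8). It was −0.07 with full B and C (9), 0.14 in promoter deletions (13 alleles) and 0.06 for B alone (4). Of the 15 pairs of classes, 0 passed after adjustment by two-sided permutation over these values (2 did before it). The smallest adjusted p was 0.252, for C alone against B alone (difference −0.22, exact permutation p = 0.0209) and for full B with C against B alone (difference −0.15, exact permutation p = 0.0336). With all unmodified alleles as control, C alone against B alone passed (difference −0.21, adjusted exact permutation p = 0.0387). B alone lay on castaneus in all 4 alleles. Full B with C lay on musculus, as did C alone apart from ∆CR11.8k. In these pairs strain and deletion could thus not be told apart. The musculus and castaneus alleles of 1 clone can stand in different classes and are not independent. In the promoter class both alleles of ∆ATSS.BTSS.CTSS clones A1, A8 and C4 and of ∆BTSS.CTSS clone C11 count as separate units. The p-values of pairs with this class thus do not measure the spread between clones alone.

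**Figure D4:**
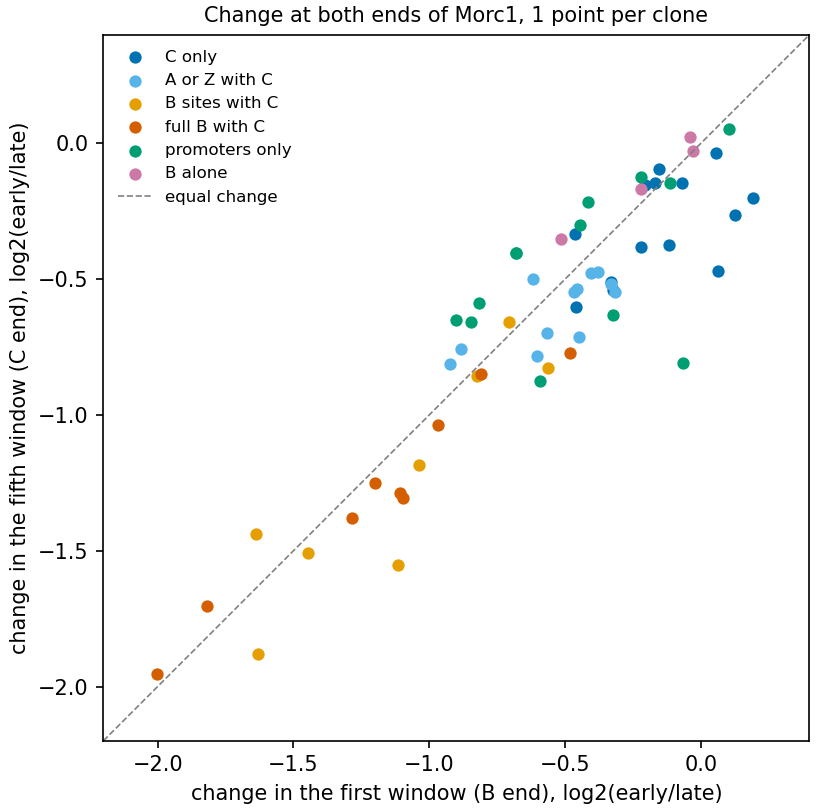
Change of log2(early/late) against control in the first window (x axis, B end) and the fifth window (y axis, C end), 1 point per clone and allele, coloured by class of deletion. Points on the dashed line changed equally at both ends; they follow it from near 0 to about the position of ∆A.B.COSN123 at −1.91 and −1.83, with C deletions mostly below it and ∆BTSS and ∆BTSS.CTSS above it.

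The tilt varied as much between cultures as between clones. Repeat cultures of a clone differed in the change of tilt with an SD of 0.17 (15 alleles grown more than once), against an SD of 0.17 between clones of a deletion. For the change of the mean, the SD was 0.10 between cultures and 0.16 between clones. The half-width of the unadjusted 95% interval of a change of tilt ran from 0.16 for 5 clones to 0.37 for 1 clone. It is not the limit of the test, which is adjusted over all stretches. The change of −0.28 in ∆ATSS.BTSS.CTSS had a 95% interval of −0.49 to −0.07 and did not pass (adjusted limma p = 0.0512). Changes of tilt larger than these half-widths could thus also go uncalled.

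Other genes of the pathway and family were read at the window of their start. Dppa4 and Dppa2, to the left of Morc1, were later in 15 and 12 of 28 deletions and earlier in none, with changes from −1.71 to 0.09 and from −1.76 to 0.11 (background 7.27% later). Of the other MORC genes, Morc2a on chromosome 11 passed in 1 of 26 deletions tested (earlier in ∆Z.AOSN.COSN123 by 0.36), Morc2b on chromosome 17 in 1 of 28 (∆ATSS, −0.58) and Morc3 on chromosome 16 in 1 of 28 (∆BOSN1.COSN123, −0.33), against 12.6% of windows called in all.

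Over the 28 deletions, the change of the mean of Morc1 was followed most closely by that of Gm5485, which lies within the first window and the one before (Pearson r = 0.97), Dppa2 (0.93), Dppa4 (0.90) and Trat1 (0.90), and less by Dzip3 (0.71) and Cip2a (0.61). Outside 46 to 51 Mb of chromosome 16, the highest correlations among 12494 protein-coding genes were those of Bend4 (0.73), Slc30a9 (0.68) and Asb7 (0.66). Their changes were smaller, at lowest −0.58, −0.55 and −0.31. The points share libraries and controls, and the genes were picked for this likeness. Of the 2 windows of Gm5485, 1 is the first window of Morc1, so its r sets values in part against themselves. The smoothing over 300 kb also lets windows of nearby genes share reads with those of Morc1.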

How the data were processed

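Per the labels and the methods of the study, reads were trimmed with Trim Galore and cutadapt, aligned with bowtie2 to an N-masked mm10 genome, assigned to homologs by SNPsplit, deduplicated and counted in 50 kb windows with bedtools (versions are not given in the sources used here). The authors deposited log2 early/late ratios, scaled, quantile-normalized and loess-smoothed over 300 kb; read depth is unknown. Of 142 samples, 10 had no column and were not analysed here; 0 other columns existed.

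Runs and cultures were averaged per clone. The control was the unmodified homolog of the clone (45 alleles) or, where that carried a deletion, the mean of all unmodified alleles (16), a control those alleles share. ∆COSN1.2.8k clone 18 had no castaneus values here and dropped out of differences. Group means were fitted by limma 3.58.1 (R 4.3.3) over all windows, or all 5-window stretches, with Benjamini-Hochberg adjustment, called under 0.05, tested on simulated data. Permutation tests used scipy. P-values measure the spread between clones, though the promoter class counts both alleles of some clones as separate units. Where cultures were the units, p-values measure the spread between cultures, some of them of the same clone. Members, gene lists and deletion classes were chosen with earlier results of these data known. Besides Morc1, the genes named were Dppa2, Dppa4 and the MORC genes, the 3 protein-coding genes outside chromosome 16 from 46 to 51 Mb whose change per deletion correlated best with that of Morc1, and genes of that interval, which were chosen after their values were seen. Guides were read from the study's supplementary tables and located in GRCm38.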

Additional observations from a re-analysis of the deposited data

Results flagged for a closer look

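∆CTSS, the deletion of the start site inside C, was made on musculus in clone C12 and on castaneus in clone C4, and the mean over Morc1 changed in opposite directions, by −0.224 in C12 and by 0.164 in C4. In both clones the musculus allele was the later one. With 1 clone on each strain, the difference was not tested. Among 14 groups of 4 or more clones or cultures, Dixon's criterion, which marks about 1 in 20 groups by chance, marked 0 values.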

How the results depend on the processing

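The count of deletions that changed the tilt, 1 (∆COSN12), was 2 without moderation of variances, 0 on the inner windows, 3 between the windows outside the gene, 4 with unmodified alleles of the same strain as control, and 0 to 2 on leaving out a clone in turn. It was 0 without ∆COSN12 clone B6 or C6. For deletions on musculus, the same-strain control was the mean of only 2 unmodified alleles. The count of delayed deletions, 19, ranged from 18 to 21 on leaving out a clone. The tilt of unmodified castaneus alleles ranged from −0.28 to −0.267. The tilt of musculus against castaneus alleles was −0.0712 on the inner windows and ranged from 0.0521 to 0.208, with p = 0.0465 (exact permutation) without ∆COSN12 clone C6. Without ∆CTSS clone C4 the difference was 0.208, but only 1 musculus allele was left, so its spread could not be tested. For full B loss, the change of tilt on ∆A.COSN123 was −0.0639 between the windows outside the gene and ranged from 0.0434 to 0.145. On ∆AOSN.COSN123 it was 0.0025 on the inner windows, 0.243 between the windows outside the gene and 0.0611 with either other control, and ranged from −0.0544 to 0.0476. None of these passed the test. Leaving out 1 clone or culture gave 0.178 to 0.25 for ∆A.B.COSN123 against ∆AOSN.B.COSN123, −0.18 to −0.103 for ∆COSN123 and 0.187 to 0.253 for ∆BTSS.CTSS. The count of class pairs that differed in tilt, 0, was 1 with all unmodified alleles as control, and 0 on leaving out each ∆B clone in turn, an alternative chosen after seeing the data. ∆CTSS changed the tilt by 0.0521 on the inner windows and 0.0248 with all unmodified alleles as control, and the mean by 0.0649 with that control, 0.0618 with the same-strain control and −0.224 to 0.164 without 1 clone. ∆COSN1 without 1 clone ranged from −0.0918 to 0.0577 for the tilt and −0.0869 to 0.0489 for the mean. The delay of ∆COSN12 was −0.0824 with all unmodified alleles and −0.0889 with those of the same strain as control, neither past the test. The causes were not tested. The filter on windows with a value in every profile was not run, since it leaves no window of Morc1.

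Samples with the same replicate number did not deviate together (correlation 0.0169), so they share only a number. With the replicate number as a block the tilt of ∆A.B.COSN123 against ∆AOSN.B.COSN123 differed by 0.216 (adjusted limma p = 0.998), as without it, and the mean by −0.825 (adjusted limma p = 0.00641, against 0.00316 without it). Both fits used the cultures of these deletions alone as units, which is why the latter p differs from that over clones of all deletions.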
